A study of Mus musculus with 6 samples.

Results

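The nuclear genes for the subunits of the 5 complexes of oxidative phosphorylation were examined in embryonic submandibular glands (eSMGs) with and without AMD3100, an antagonist of the chemokine receptor CXCR4. Genes were taken by symbol alone, namely the Nduf a, b, c, s and v series, Sdha to Sdhd, the Uqcr series, Cox4 to Cox8 and the Atp5 series, leaving out pseudogenes and the Ndufaf assembly factors. This gave 84 genes of the 23260 in the deposited tables, with 37 for complex I, 4 for complex II, 8 for complex III, 18 for complex IV and 17 for complex V. A few of these symbols are not structural subunits of the complex they are counted with, as Ndufa4 is now placed in complex IV, Cox7a2l bridges respiratory complexes, and Atp5s and Atp5sl do not belong to the ATP synthase structure. None of the symbols searched for subunits encoded by mitochondrial DNA was found in the deposited tables, so these subunits were not analysed here.

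The eSMGs were taken from E14 embryos of ICR mice and cultured whole, with epithelium and mesenchyme, for 6 h, either as control or with 50 µM AMD3100. Both groups had 3 tubes of up to 10 pooled glands each, and a 3′ mRNA library was made from each tube. Nothing in the labels states what a replicate number marks, so p-values measure only the spread between these tubes. Counts per library ranged from 9051595 to 14393031.

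In the mitochondrial inner membrane, complexes I and II pass electrons from NADH and succinate to ubiquinone, complex III passes them on to cytochrome c, and complex IV passes them to oxygen. Complexes I, III and IV pump protons, and complex V, the ATP synthase, uses the returning protons to make ATP. Most subunits come from nuclear genes, many of which share promoter elements for NRF1, ETS factors such as GABP, and YY1, and several complex IV subunits have heart and skeletal muscle isoforms. In bulk RNA, fewer cells of a type and less RNA per cell cannot be told apart.

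The subunit genes were abundantly expressed. Levels are given as CPM, counts scaled to the library totals with TMM factors. They were not scaled to length, since the 3′ kit gives about a read per transcript irrespective of its length. Levels of different genes also depend on how reads that match several places were counted, which was not stated. Of reads simulated from the 3′ end of Uqcrh, 45.5% also matched elsewhere in the genome, against 0% for Atp5g3 and Ndufa2. The median gene stood at 117 CPM over the 6 libraries, against 16.0 CPM over the 13610 genes that passed the filter on low counts. ATP synthase genes had the highest median (198 CPM), with Atp5g3, for the c subunit of the membrane ring, highest of all at 792 CPM, followed by Uqcrh (751 CPM), for the hinge protein of complex III, and Ndufa2 (523 CPM). These are means over all 6 libraries, and in AMD3100-treated eSMGs alone Uqcrh (791 CPM) stood above Atp5g3 (712 CPM). Under 20 CPM stood 10 genes, 7 of them in complex IV, and this low group held the tissue-restricted isoforms Cox4i2, Cox6a2, Cox6b2, Cox7a1, Cox7b2, Cox8b and Cox8c as well as Ndufa4l2, Sdhd and Atp5s. Together the 84 genes took 1.12%, 1.22% and 1.69% of all counts in control and 1.48%, 1.17% and 1.53% in AMD3100-treated eSMGs. These shares also depend on Rn45s, the ribosomal RNA precursor, which is part of the totals. It took 32.4%, 27.5% and 20.2% of counts in control and 16.2%, 32.5% and 22.7% in AMD3100-treated eSMGs.

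Summed over all 84 genes, expression was 11283, 11669 and 18337 CPM in control replicates 1 to 3 and 12278, 12300 and 17050 CPM in AMD3100 replicates 1 to 3. Replicate 3 was the high library in both groups, and the groups overlapped. The means, 13763 ± 3966 CPM in control and 13876 ± 2749 CPM in AMD3100-treated eSMGs (SD, n = 3), differed by less than the spread between tubes. The same held for complexes I, III, IV and V, of which complex I stood at 4673 ± 1544 and 4755 ± 1217 CPM and complex V at 4063 ± 1028 and 3921 ± 526 CPM. Complex II, the smallest sum, was 447, 488 and 564 CPM in control and 482, 440 and 460 CPM in AMD3100-treated eSMGs, also overlapping.

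**Figure D1:**
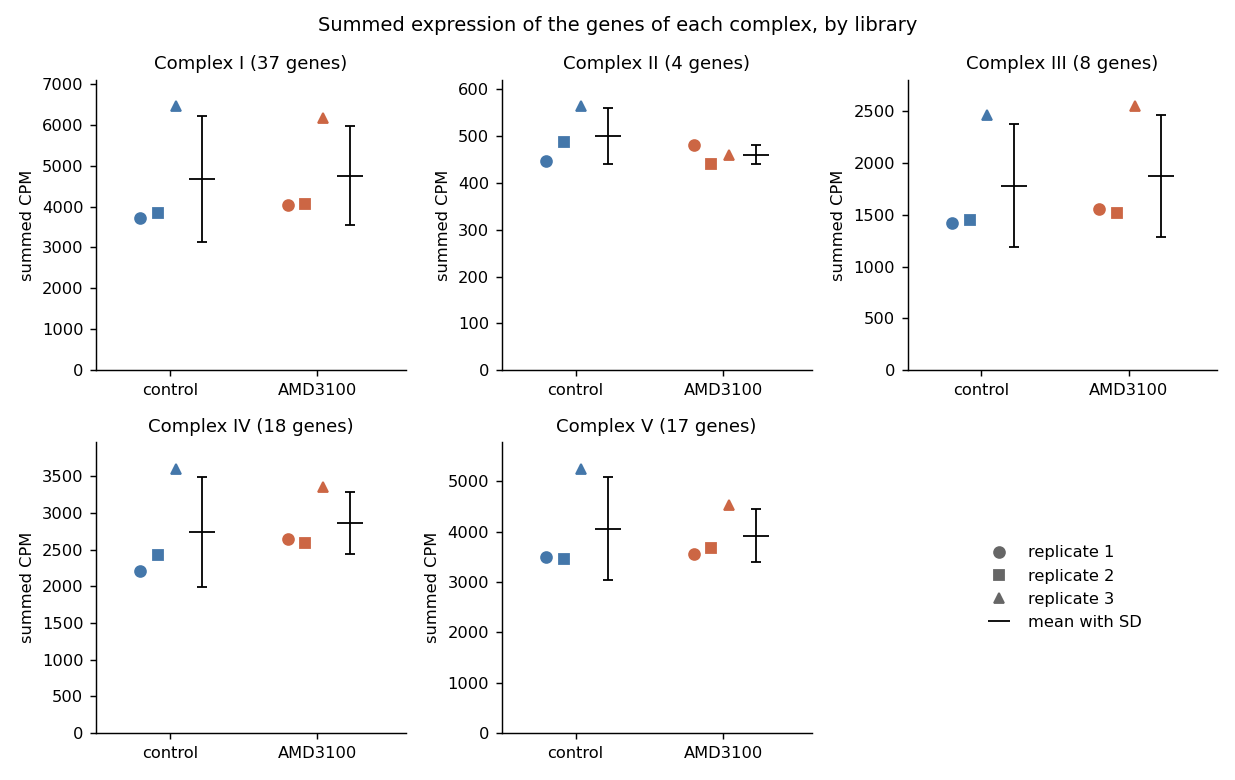
Summed TMM-scaled CPM (vertical axes, from 0) of the genes of each complex in the 6 libraries. Symbols give the replicate number and the black bar the mean with SD, and replicate 3 is highest in both groups for complexes I, III, IV and V, while the complex II sums lie between 440 and 564 CPM.

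To determine whether single subunit genes responded to AMD3100, the 81 genes with enough counts were compared within edgeR's quasi-likelihood test over all 13610 genes. A gene was called at the thresholds in the study's text, an unadjusted p under 0.05 and a fold change over 1.5. Only 3 of the 81 were called, Ndufa1, Cox7c and Sdhd, all lower with AMD3100. A figure caption of the paper gives a fold change of at least 2 instead, which Cox7c, at a log2 fold change of -0.92, did not reach. Of all genes tested 1.28% were called lower and 0.397% higher. After Benjamini-Hochberg adjustment 0 of the 81 and 0 of all genes had an adjusted p-value under 0.05 in edgeR's test, while 228 genes, or 1.68%, had an unadjusted p under 0.05. DESeq2 gave 5 genes, or 0.0367%, past the adjusted threshold, with 0 subunit genes among them, and called the same 3 subunit genes at the unadjusted thresholds, where it called 2.39% of all genes.

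With replicate number as a block, which compares tubes of the same number, 5 of the 81 genes were called, again all lower, namely Ndufa1, Cox7c, Ndufb3, Sdhc and Uqcrfs1. In that fit 4.39% of all genes were called, 2.9% lower and 1.49% higher. Sdhd was not called with the block, where its log2 fold change was -3.93, against -3.94 without it. The adjusted threshold was passed there by 0 subunit genes and by 3 of all genes (0.022%), and an unadjusted p under 0.05 was found for 7 subunit genes and for 6.66% of all genes. The treated library was the lower in all 3 pairs for 9 of the 81 genes (Ndufa1, Ndufa4, Ndufb3, Sdhc, Sdhd, Uqcrc1, Cox7c, Atp5c1 and Atp5g3), against 14.6% of all genes, and the higher in all 3 pairs for 13, against 15.7%. The fit without the block gave 0 calls among the subunit genes without control replicate 3, without AMD3100 replicate 1 or without AMD3100 replicate 2, where 547 of 14256, 163 of 14197 and 195 of 14313 genes were called in all. It gave 4 without control replicate 1, where 195 of 14241 genes were called, and 4 without AMD3100 replicate 3, where 451 of 14260 were.

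Most of the other subunit genes had estimates close to 0. The median log2 fold change of the 81 genes was 0.03, against 0.02 over all genes tested, with 39 below 0 and 42 above. By complex the medians were 0.04 for I, -0.53 for II, 0.05 for III, 0.11 for IV and -0.01 for V, and the complex II value is that of 4 genes with only Sdhb above 0. The log2 fold change was under 0.2 in size for 59 of the 81 genes, or 72.8%, against 38.7% of all genes tested, and among genes of at least 100 CPM for 45 of 50, or 90%, against 68%. A small estimate was a bounded one mainly with the replicate block, where the median 95% interval reached 0.35 to either side on the log2 scale, against 0.85 without it. With the block, the whole interval lay within 1.5-fold either way for 55 of the 81 genes, against 17% of all genes, and at 100 CPM or more for 47 of 50 (94%), against 78.8%. Without the block a single gene of the 13610 (0.00735%) had such an interval, and it was Atp5e, for the epsilon subunit of F1, at 281, 282 and 276 CPM in control and 267, 297 and 273 CPM in AMD3100-treated eSMGs.

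**Figure D2:**
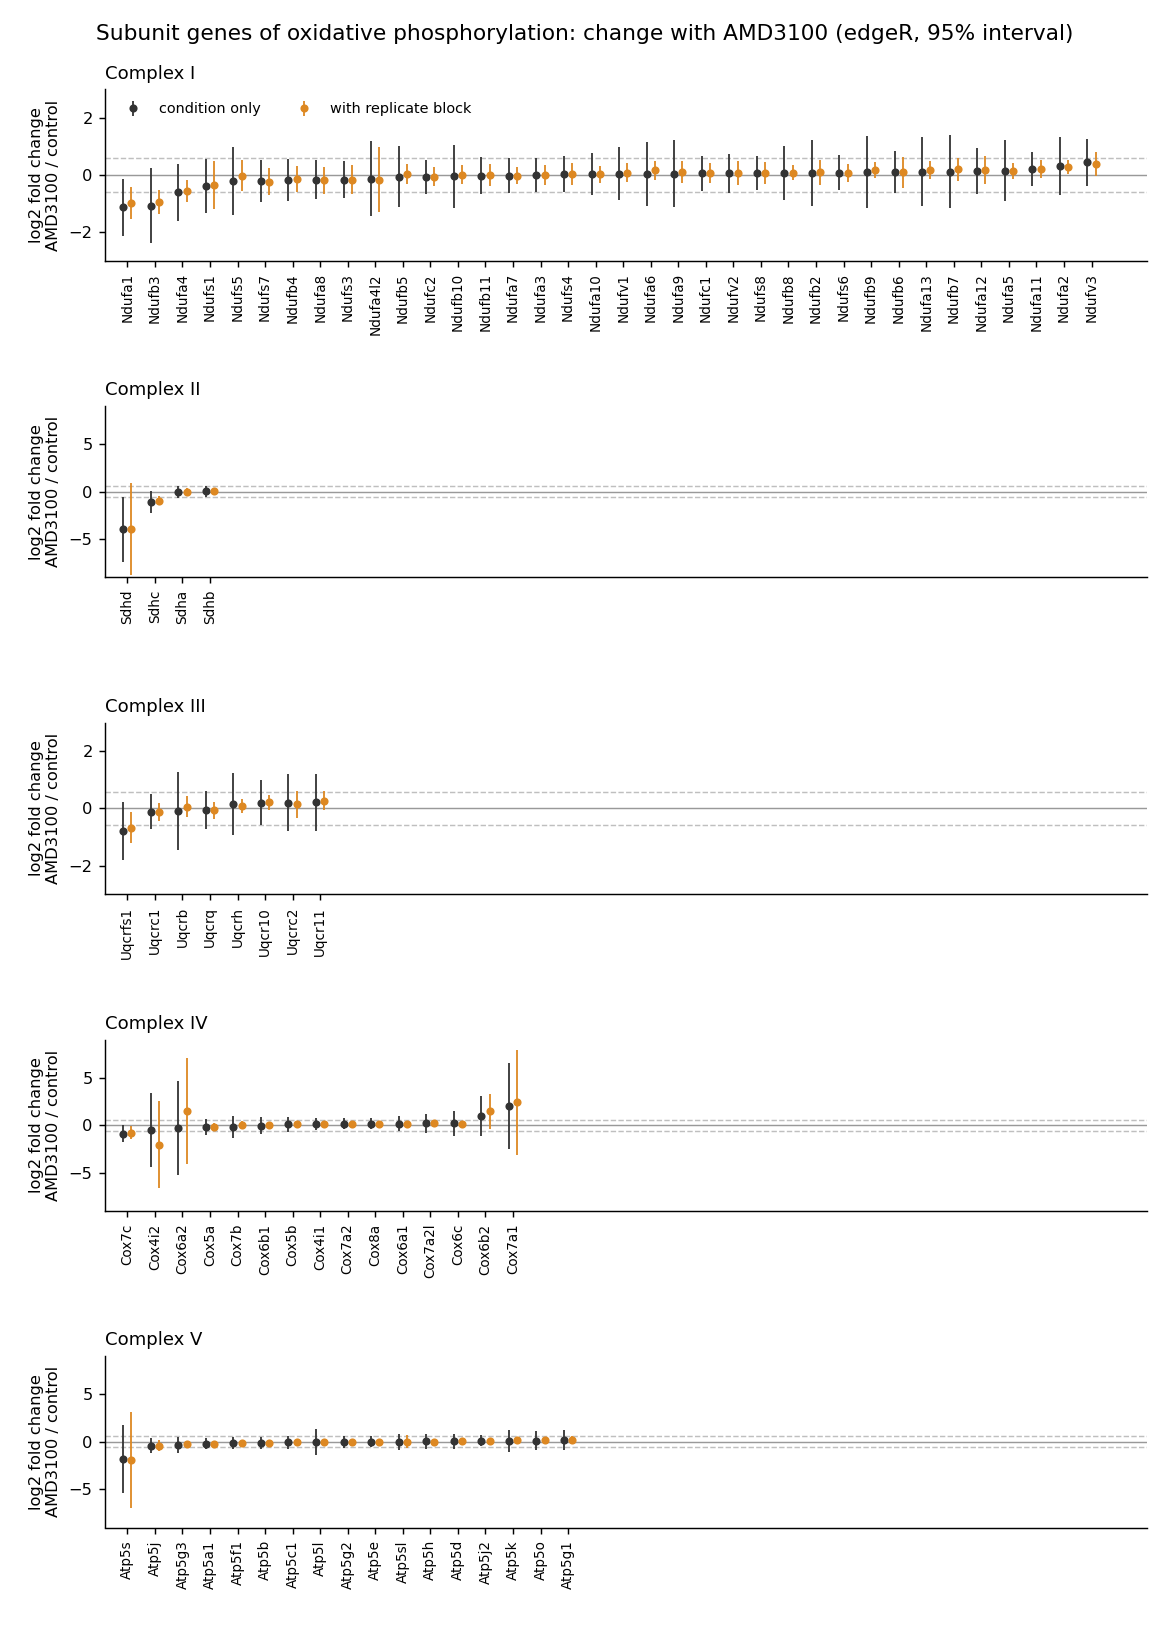
Log2 fold change of AMD3100 over control (vertical axes) for 80 of the 81 subunit genes tested, ordered within each complex, with 95% intervals from edgeR without (dark) and with (orange) the replicate block. Dashed lines mark 1.5-fold, the axes of complexes II, IV and V span a wider range than those of I and III, and most points lie near 0, with Ndufa1, Ndufb3, Sdhd, Sdhc, Uqcrfs1 and Cox7c at the low end of their complexes.

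The promoters of the 3 genes called without the block are shown so that the elements known from oxidative phosphorylation genes can be read in place. They are RefSeq windows of 250 bases before to 50 bases after the transcript start on GRCm38.p6, read 5′ to 3′ on the strand of the gene. Capitals mark matches to 3 motifs searched on both strands, GCGCA and GCGC with any base between them for NRF1, CCGGAAG for ETS factors and ATGGCG for YY1, none of which is contained in another. Ndufa1 and Cox7c each held a YY1 match, and Sdhd held a match to NRF1 and another to ETS.
Ndufa1 promoter, chrX:37191189-37191488, minus strand: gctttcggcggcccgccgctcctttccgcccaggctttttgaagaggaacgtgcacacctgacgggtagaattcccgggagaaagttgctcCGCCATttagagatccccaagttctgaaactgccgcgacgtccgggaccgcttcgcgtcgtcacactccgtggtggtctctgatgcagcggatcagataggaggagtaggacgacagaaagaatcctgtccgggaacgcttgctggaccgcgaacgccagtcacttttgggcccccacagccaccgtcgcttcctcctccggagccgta
Cox7c promoter, chr13:86046746-86047045, minus strand: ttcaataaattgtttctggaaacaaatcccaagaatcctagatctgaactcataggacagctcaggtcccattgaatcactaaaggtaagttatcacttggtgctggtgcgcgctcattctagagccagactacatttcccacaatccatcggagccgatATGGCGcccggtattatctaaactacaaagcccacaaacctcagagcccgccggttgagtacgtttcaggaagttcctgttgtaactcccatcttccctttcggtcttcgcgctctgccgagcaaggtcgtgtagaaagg
Sdhd promoter, chr9:50603800-50604099, minus strand: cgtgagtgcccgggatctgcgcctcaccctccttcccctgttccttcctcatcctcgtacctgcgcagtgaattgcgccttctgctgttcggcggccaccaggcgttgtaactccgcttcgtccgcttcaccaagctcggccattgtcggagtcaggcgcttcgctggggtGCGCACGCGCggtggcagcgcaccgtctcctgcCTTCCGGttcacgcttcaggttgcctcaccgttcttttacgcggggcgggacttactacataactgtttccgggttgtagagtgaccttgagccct
Over the 69 of the 84 subunit genes with a window, the NRF1 motif was in 17, or 24.6%, against 5.19% of the 27025 genes with a window of this length. The other subunit genes had no window and are not part of these shares. The ETS motif was in 16 (23.2% against 9.93%), the YY1 motif in 19 (27.5% against 10.2%), and any of them in 43 (62.3% against 21.5%). The windows of Ndufb3 and Uqcrfs1 held none of these letters. A match describes the sequence and is not a measured site.

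Complex I accepts electrons from NADH through core subunits that carry a flavin and iron-sulfur clusters, surrounded by many accessory subunits. Ndufa1 is a small accessory subunit needed for assembly of the membrane arm. It stood at 39.7, 45.3 and 114 CPM in control and at 25.4, 28.9 and 36.0 CPM in AMD3100-treated eSMGs. All 3 treated libraries lay below all 3 control libraries, and control replicate 3 was far above the others. Of all genes tested, 4.17% lay lower without overlap in this way, and of the subunit genes Ndufa1, Cox7c and Sdhd did (3 of 81), while 0 of 81 lay higher without overlap, against 3.28% of all genes. The means were 66.3 ± 41.4 and 30.1 ± 5.38 CPM (SD, n = 3), and the log2 fold change was -1.14 (SE 0.44, unadjusted p = 0.0288, adjusted p = 1.0, edgeR's quasi-likelihood test), or -0.98 (SE 0.25, unadjusted p = 0.00295, adjusted p = 0.414) with the block. Without control replicate 3 it was -0.49 and no longer called (unadjusted p = 0.173 by edgeR), nor was it called without AMD3100 replicate 1 or 2, at -1.03 and -1.11. With replicates 1 and 2 of both groups alone it was -0.65 and called (unadjusted p = 0.0462 by edgeR). Ndufa1 lies at chrX:37187588-37191238 (GRCm38.p6), and 18.2% of reads simulated from its 3′ end also matched elsewhere in the genome.

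Ndufb3, an accessory subunit of the membrane arm at chr1:58586397-58595964, stood at 73.5, 105 and 294 CPM in control and at 54.8, 46.0 and 124 CPM in AMD3100-treated eSMGs. The treated library was the lower in each of the 3 pairs of equal replicate number, but the groups overlapped because replicate 3 was high in both. The log2 fold change was -1.07 (SE 0.58, unadjusted p = 0.0973 by edgeR) without and -0.96 (SE 0.19, unadjusted p = 0.00064, adjusted p = 0.235) with the block, and -0.24 without control replicate 3. With replicates 1 and 2 of both groups alone it was -0.83 and called (unadjusted p = 0.00479 by edgeR). Reads of Ndufb3 are uncertain, since 54.5% of those simulated from its 3′ end also matched another place. Ndufa4, which now counts as a complex IV subunit, showed 60.2, 54.3 and 131 CPM against 40.4, 41.9 and 79.0 CPM, again the lower in each pair and overlapping as groups. Its log2 fold change was -0.61 (unadjusted p = 0.196 by edgeR), or -0.56 with the block (unadjusted p = 0.00858, adjusted p = 0.553), under the fold threshold. With 1 library left out it ranged from -1.01 to -0.08, and Ndufa4 was called without AMD3100 replicate 3.

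The 2 most abundant complex I genes had estimates above 0. Ndufa2, an accessory subunit of the NADH-oxidising arm, stood at 339, 341 and 718 CPM in control and 387, 430 and 921 CPM in AMD3100-treated eSMGs, the higher in each pair, with a log2 fold change of 0.31 (unadjusted p = 0.501 by edgeR). With the block it was 0.30 (95% interval 0.05 to 0.54, unadjusted p = 0.0235), under the fold threshold, and its 3′ end overlaps that of Tmco6 on the opposite strand. Ndufb8, a membrane arm subunit that serves as a marker of assembled complex I, stood at 237, 233 and 494 CPM against 250, 256 and 506 CPM, a log2 fold change of 0.07 (95% interval -0.89 to 1.03).

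Complex II, succinate dehydrogenase, is a tetramer encoded wholly in the nucleus that also works in the TCA cycle. Sdha carries the flavin, Sdhb the iron-sulfur clusters, and Sdhc and Sdhd anchor both in the membrane. The 2 catalytic subunit genes had estimates near 0, with Sdhb at 306, 307 and 283 CPM in control and 325, 317 and 291 CPM in AMD3100-treated eSMGs (log2 fold change 0.06, 95% interval with the block -0.20 to 0.32). Sdha stood at 82.5, 121 and 110 CPM and 115, 94.0 and 101 CPM (log2 fold change -0.01), with overlapping groups.

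Both membrane anchor genes had lower estimates. Sdhc, at chr1:171129157-171150640, stood at 56.7, 57.8 and 169 CPM in control and 41.1, 28.6 and 67.8 CPM in AMD3100-treated eSMGs. The treated library was the lower in each pair, but AMD3100 replicate 3 lay above control replicates 1 and 2. The log2 fold change was -1.05 (SE 0.51, unadjusted p = 0.0713 by edgeR), or -0.93 with the block (SE 0.20, unadjusted p = 0.00114, adjusted p = 0.268), and -0.31 without control replicate 3. With replicates 1 and 2 of both groups alone it was -0.72 and called (unadjusted p = 0.0224 by edgeR). No simulated read of Sdhc was shared with another place.

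Sdhd, at chr9:50596340-50603849, had only 14, 20 and 18 counts in control and 1 count in each AMD3100 library, which is 1.23, 1.46 and 1.80 CPM against 0.0576, 0.0922 and 0.123 CPM. The groups did not overlap, and all 3 treated values lay under the floor of 3 counts, which is 0.17 to 0.37 CPM by library. The 52 control counts against 3 treated counts, scaled to the libraries, made Sdhd 17.9-fold lower, with an exact 95% counting interval of 5.80 to 89.7. That interval pools the reads of the 3 tubes of each group and leaves out the spread between tubes. Counting intervals and floors cover counting error only. They take reads as independent, although no molecular identifiers are mentioned for these reads. In edgeR's test the log2 fold change was -3.94 (SE 1.51, unadjusted p = 0.0286, adjusted p = 1.0). With the block the log2 fold change was about as large, at -3.93 (SE 2.16), but the unadjusted p by edgeR was 0.101 and the call was lost. It was also lost with no filter on low counts, with quantile normalization and limma-voom, with replicate 3 as a batch, with replicates 1 and 2 alone and with any single library left out (log2 fold change -4.18 to -3.67), and Sdhd was left out where 10 counts were required in every library. The level of Sdhd was low beside its partners, at 1.49 ± 0.286 CPM in control against 299 ± 13.7 CPM for Sdhb, although the proteins occur in the complex in equal number. The reason for this low count was not tested.

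**Figure D3:**
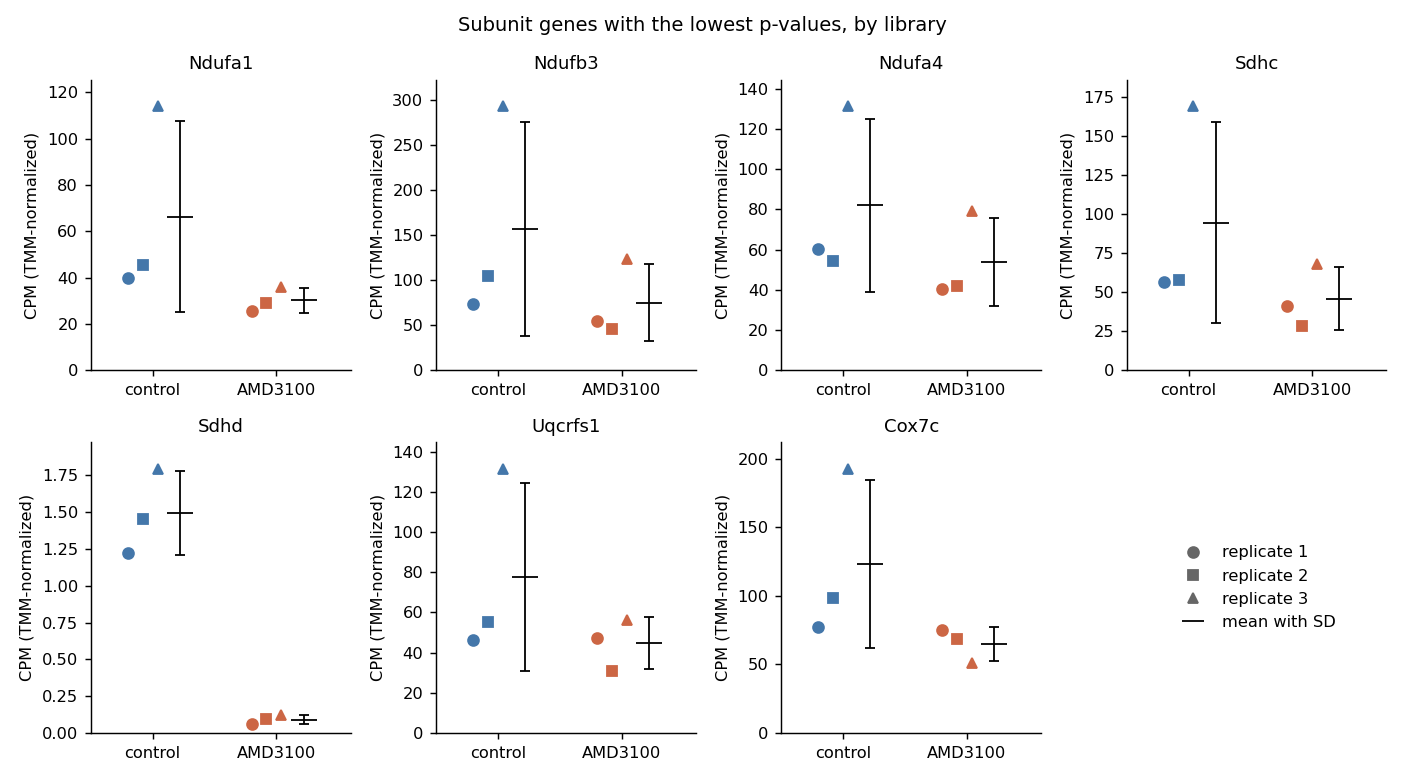
TMM-scaled CPM (vertical axes, from 0) of the 7 subunit genes with the lowest p-values, by group, with a symbol for each replicate and the mean with SD in black. Sdhd, Ndufa1 and Cox7c do not overlap between groups, and replicate 3 (triangles) is the high control library of all 7 genes.

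Complex III moves electrons from ubiquinol to cytochrome c. Uqcrfs1, the Rieske iron-sulfur protein at chr13:30540312-30545316, stood at 46.1, 55.1 and 132 CPM in control and 47.1, 31.0 and 56.5 CPM in AMD3100-treated eSMGs. The groups overlapped, and the pair of replicate 1 was level. Its log2 fold change was -0.79 (SE 0.45, unadjusted p = 0.111 by edgeR), or -0.68 with the block (SE 0.24, unadjusted p = 0.0213, adjusted p = 0.703), and it was -0.17 without control replicate 3 and -0.38 with replicates 1 and 2 of both groups alone, not called in either. The other 7 complex III genes had log2 fold changes between -0.12 and 0.22. Uqcrh was highest at 521, 511 and 1099 CPM in control and 525, 507 and 1341 CPM in AMD3100-treated eSMGs, level in replicates 1 and 2 and high in replicate 3 of both. Uqcrq, for a small subunit bound to cytochrome b, went the other way in replicate 3, at 291, 288 and 235 CPM and 290, 298 and 196 CPM. Uqcr10, for another small subunit, stood at 213, 183 and 337 CPM and 247, 223 and 369 CPM, higher with AMD3100 in each pair with a log2 fold change of 0.19 (95% interval -0.59 to 0.98).

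Complex IV reduces oxygen, and its nuclear subunits surround a core made in the mitochondrion. Cox7c, a small subunit of the membrane part at chr13:86044798-86046795, stood at 77.6, 98.5 and 193 CPM in control and 75.2, 68.9 and 51.2 CPM in AMD3100-treated eSMGs. The groups did not overlap, but the lowest control and the highest treated library were close to each other, and replicate 3 was the highest control and the lowest treated library. The log2 ratios of treated to control were -0.04, -0.51 and -1.90 in pairs 1 to 3. The log2 fold change was -0.92 (SE 0.39, unadjusted p = 0.0433, adjusted p = 1.0, edgeR's quasi-likelihood test), and -0.81 with the block (unadjusted p = 0.0271, adjusted p = 0.703). Without control replicate 3 it was -0.43, with replicates 1 and 2 alone -0.29, and it was not called in either, nor without any 1 of the treated libraries (-1.04, -0.96 and -0.79 without AMD3100 replicates 1, 2 and 3). Cox7c is also an uncertain count, since 72.7% of reads simulated from its 3′ end matched another place and a small nucleolar RNA, snoZ39, overlaps that end on the same strand.

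The 2 most abundant genes of complex IV were not called in either fit. Cox7a2, highest at 395 CPM over the libraries, showed 353, 380 and 398 CPM in control and 399, 392 and 447 CPM in AMD3100-treated eSMGs (log2 fold change 0.13, 95% interval with the block -0.12 to 0.38), the higher in each pair. Cox6c stood at 204, 202 and 589 CPM and 255, 178 and 698 CPM, with replicate 3 well above the others in both groups. Its log2 fold change of 0.18 had a 95% interval of -1.17 to 1.54 without and -0.18 to 0.43 with the block.

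The alternative Cox isoforms of complex IV were rare beside their common partners, and no test of them passed a threshold. Cox6a2, the heart and skeletal muscle form of subunit 6A, had 0, 0 and 52 counts in control and 17, 0 and 27 counts in AMD3100-treated eSMGs, which was 0%, 0% and 2.13% and 0.232%, 0% and 1.62% of the counts of Cox6a1 and Cox6a2. The counts were high in replicate 3 of both groups, and a count of 0 allows up to 0.0857%, 0.0574% and 0.0675% in the 3 libraries concerned. Cox7a1, the muscle form of subunit 7A, had 1, 0 and 10 counts and 27, 0 and 23 counts, and Cox8b, of the same tissues, had 3, 0 and 2 counts and 0, 0 and 11 counts. These 3 muscle forms stood at 0 together in control replicate 2 and AMD3100 replicate 2. Cox7b2, known from testis, had 12 counts in AMD3100 replicate 3 and 0 elsewhere, and Cox8c, also of testis, had 0 counts in all 6 libraries. Cox4i2, a form of subunit 4 known for its response to oxygen, had 40, 31 and 4 counts in control and 73, 0 and 1 counts in AMD3100-treated eSMGs. Cox6b2, a testis form of subunit 6B, had 77, 40 and 4 counts and 167, 56 and 39 counts, with the lowest share of its pair, 0.0785%, in control replicate 3. Less rare was Ndufa4l2, a relative of Ndufa4 known to be induced by low oxygen, which made up 10.2%, 19.3% and 3.94% of that pair in control and 22.1%, 15.3% and 4.74% in AMD3100-treated eSMGs, the lowest share again in replicate 3 of both groups.

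Complex V joins the catalytic F1 head to a membrane ring of c subunits. The 5 F1 genes (Atp5a1, Atp5b, Atp5c1, Atp5d and Atp5e) summed to 1269, 1228 and 1516 CPM in control and 1260, 1240 and 1316 CPM in AMD3100-treated eSMGs, and their log2 fold changes ran from -0.18 to 0.05. Atp5o, a part of the stalk that holds F1 in place, stood at 289, 326 and 747 CPM and 412, 415 and 669 CPM, overlapping through replicate 3, with a log2 fold change of 0.13 (95% interval -0.82 to 1.09). Atp5j, another stalk subunit, stood at 46.3, 56.6 and 70.3 CPM and 49.8, 53.5 and 29.7 CPM (log2 fold change -0.38, unadjusted p = 0.278 by edgeR), the one stalk gene for which replicate 3 was the highest control and the lowest treated library. With replicates 1 and 2 of both groups alone its log2 fold change was -0.00196, and with 1 library left out it ranged from -0.53 to -0.18. Atp5s had 80, 13 and 7 counts and 1, 24 and 2 counts, too variable to compare, with a log2 fold change of -1.77 (SE 1.57).

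The c subunit is encoded by 3 genes whose mature peptides are the same. Atp5g3 supplied most of the counts and stood at 632, 667 and 1321 CPM in control and 581, 620 and 935 CPM in AMD3100-treated eSMGs, the lower in each pair with overlapping groups. Its log2 fold change was -0.29 (SE 0.38), or -0.24 with the block (unadjusted p = 0.0679 by edgeR). Atp5g1 stood at 78.0, 79.1 and 28.9 CPM and 79.6, 90.1 and 37.5 CPM (log2 fold change 0.15), and Atp5g2 at 63.6, 69.4 and 70.5 CPM and 60.3, 74.8 and 66.8 CPM (log2 fold change -0.01), although all simulated reads of Atp5g2 were shared with other places. The makeup of the c subunit counts differed more between replicate 3 and the others than between conditions. In each pair of equal replicate number the share of Atp5g3 was lower with AMD3100, and those of Atp5g1 and Atp5g2 were higher. Atp5g3 made up 81.7%, 81.8% and 93.0% in control and 80.6%, 79.0% and 90.0% in AMD3100-treated eSMGs, while Atp5g1 made up 10.1%, 9.70% and 2.04% and 11%, 11.5% and 3.61%.

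**Figure D4:**
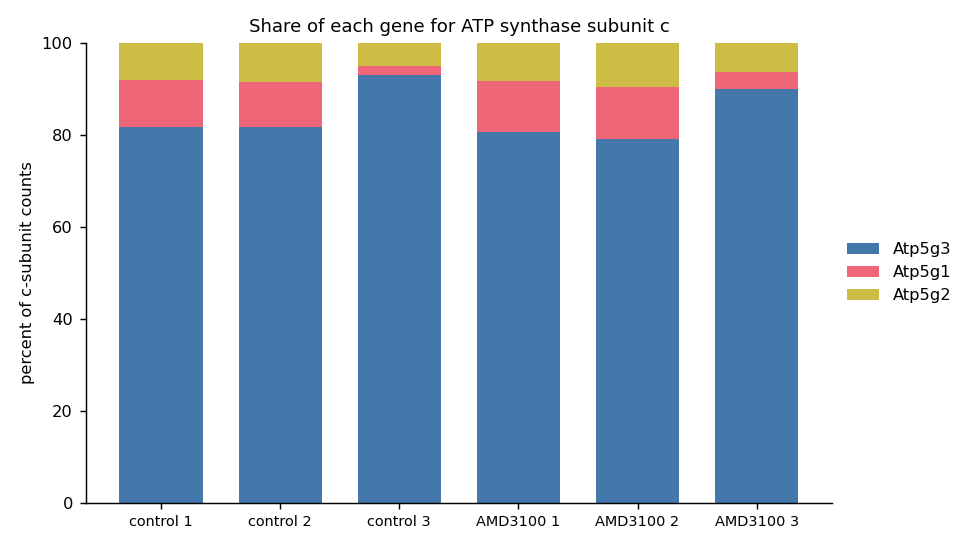
Share of the counts of the 3 genes for the ATP synthase c subunit (vertical axis, percent) in each of the 6 libraries. Atp5g3 makes up 79.0% to 81.8% in replicates 1 and 2 of both groups, and 93.0% and 90.0% in replicate 3, where Atp5g1 is lowest.

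The spread of the subunit genes lay largely between replicate 3 and the others in both groups, and this difference was larger in control. The sum over all 84 genes in replicate 3 was 1.6-fold that of the mean of replicates 1 and 2 in control and 1.39-fold in AMD3100-treated eSMGs. On the scale of log2(CPM + 0.5), 48 of the 81 genes stood higher in replicate 3 than in the mean of replicates 1 and 2 in each group, against 39.8% of all genes tested, and 19 stood lower, against 35.7%. More than 2-fold higher than the mean of replicates 1 and 2 in both groups were 16 of the 81 genes, against 9.4% of all genes. Among genes of at least 100 CPM this was 12 of 50, or 24%, against 18.6%. More than 2-fold lower than that mean were Cox4i2 and Atp5g1, or 2 of 81, against 8.07%. The values of Cox4i2, Cox6a2 and Cox7a1 in these counts rest on few reads, and with AMD3100 replicate 2 of all 3 was at 0.

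The members did not share this difference equally. Of the 10 Ndufb genes of the complex I membrane arm, 9 stood higher in replicate 3 of both groups and 5 more than 2-fold, and their sum was 993, 1006 and 2391 CPM in control and 1057, 1076 and 2088 CPM in AMD3100-treated eSMGs. Of the 5 F1 genes of the ATP synthase, whose sums are given above, 0 were more than 2-fold higher. In complexes III to V the genes more than 2-fold higher were Uqcrb, Uqcrh, Cox6a2, Cox6c, Cox7a1, Atp5k and Atp5l. The median log2 difference of the 81 genes was 0.39 in control and 0.18 with AMD3100, against 0.06 and 0.05 over all genes tested. By complex it was 0.39 and 0.24 for I, 0.23 and 0.04 for II, 0.93 and 0.60 for III, 0.83 and 0.18 for IV, and 0.36 and -0.01 for V. The differences in control and with AMD3100 were correlated across the 81 genes, with Pearson's r of 0.870 and Spearman's rho of 0.884. Over all genes tested the values were 0.646 and 0.649. They were 0.878 and 0.866 over the 74 genes of at least 20 CPM, against 0.868 and 0.860 over the 6066 genes at that level. These are correlations across genes of the same libraries, and genes are not independent replicates. Across the 81 genes the difference correlated with transcript length at a rho of -0.30 for control and -0.28 for AMD3100, and at 0.25 and 0.14 with the share of reads that match other places.

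**Figure D5:**
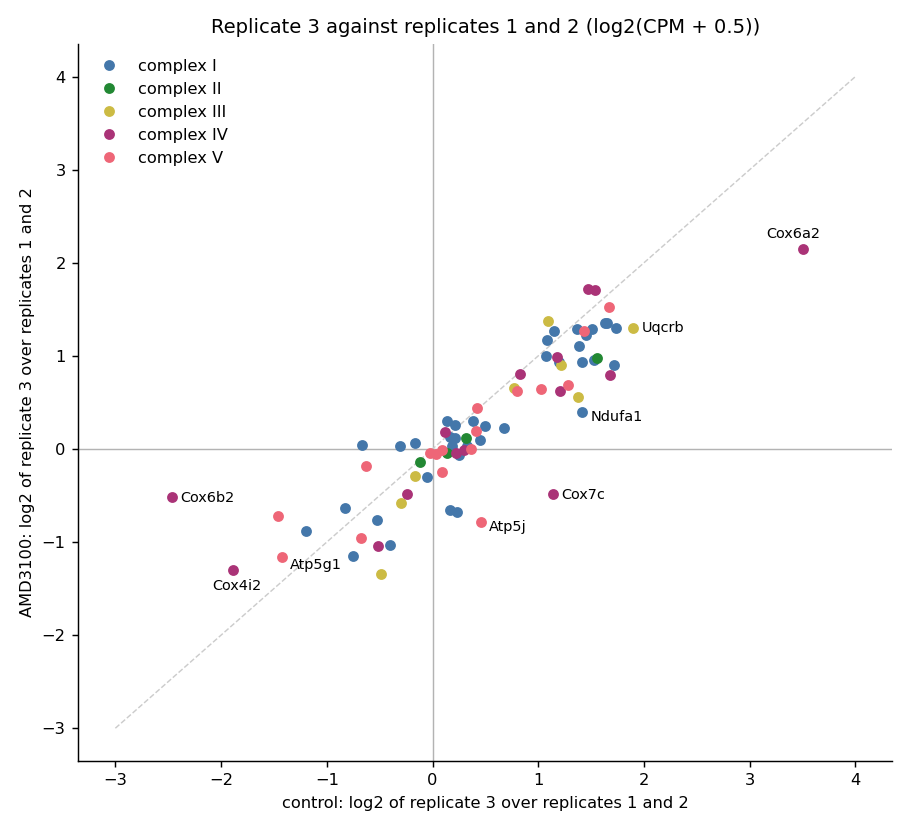
Difference between replicate 3 and the mean of replicates 1 and 2, as log2(CPM + 0.5), for the 81 subunit genes, in control (horizontal axis) and in AMD3100-treated eSMGs (vertical axis), coloured by complex. Points scatter around the dashed line of equality over a range of more than 2-fold to either side, with medians of 0.39 in control and 0.18 with AMD3100. Cox7c, Cox6a2, Atp5j and Ndufa1 are among the genes well below the line, and Cox6b2 lies well above it.

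Markers of other tissues moved with replicate 3 as well. The 16 skeletal muscle markers, led in level by Myog, the myogenic factor myogenin, summed to 407, 424 and 2242 CPM in control and 286, 252 and 3053 CPM in AMD3100-treated eSMGs, and Myog itself stood at 41.1, 40.0 and 521 CPM and 13.9, 9.95 and 485 CPM. At 0 stood 1 of the 16 in control replicate 1 and 2 in AMD3100 replicate 2. The 8 mesenchyme markers, led by Col3a1, stood at 3930, 3923 and 1739 CPM and 3852, 3846 and 1496 CPM, low in replicate 3, and the 11 epithelial markers, led by Cdh1, stood at 1209, 1253 and 611 CPM and 1341, 1345 and 1015 CPM. Cdh1 itself stood at 337, 302 and 211 CPM and 344, 394 and 507 CPM, lowest in replicate 3 of control and highest in replicate 3 with AMD3100. Macrophage markers (7, led by C1qa) stood at 108, 93.5 and 206 CPM and 108, 111 and 162 CPM. The 12 erythroid markers, led by Hba-a1, stood at 9582, 24801 and 16787 CPM and 9129, 14567 and 16239 CPM. The 5 endothelial markers, led by Kdr, stood at 32.0, 20.6 and 27.1 CPM and 15.3, 45.0 and 13.6 CPM, and the 5 neuronal markers, led by Tubb3, at 729, 571 and 721 CPM and 610, 566 and 952 CPM. In the erythroid, endothelial and neuronal lists replicate 3 was not apart from both other libraries in both groups. Of these markers 0 were called between control and AMD3100. Their part in the levels of the subunit genes was not tested.

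Subunit genes have many processed copies, and the counting of shared reads was not stated. Of the 81 genes, 18 (22.2%) had over 50% of simulated 3′ reads matching another place, against 6.54% of the 12201 genes tested that had simulated reads. They included Uqcrb, Atp5l and Atp5g2 with all reads shared, and Cox7c, Ndufb3, Cox6c and Atp5o among the genes described above. The 3′ ends of Atp5o and Ndufb8 also overlap Donson and Sec31b on the same strand, and those of Cox6c and Uqcrh overlap Vps13b and Gm12854 on the opposite strand. Without the 18 genes of mostly shared reads, 2 of the 63 others were called, Ndufa1 and Sdhd.

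Genes that serve the same pathway outside the subunit list were compared in the same fit. Of 44 assembly factors tested, 0 were called without the block and 2 were called lower with it, against the 2.9% of all genes given above. These were Cox17, a copper chaperone for complex IV, at 5.25, 11.7 and 77.5 CPM in control and 1.90, 2.95 and 15 CPM with AMD3100, and Sco1, which passes copper on to the same complex, at 20.4, 21.6 and 20.8 CPM and 7.03, 15 and 12.8 CPM. Cox17 was the lower in each pair but overlapped between groups because of replicate 3 (log2 fold change -2.27, unadjusted p = 0.0656, and with the block -1.97, unadjusted p = 0.000153, adjusted p = 0.173, by edgeR). Sco1 did not overlap (log2 fold change -0.86, unadjusted p = 0.056 by edgeR, and with the block unadjusted p = 0.0208).

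Of 18 regulators of mitochondrial biogenesis tested, 1 was called lower, Ssbp1, against 1.28% of all genes, and 2 with the block, Ssbp1 and Tfam, against 2.9%. Ssbp1, the single-stranded DNA binding protein of the mitochondrial genome, stood at 13.7, 9.76 and 18.2 CPM in control and 6.74, 1.57 and 5.77 CPM in AMD3100-treated eSMGs, without overlap (log2 fold change -1.56, SE 0.60, unadjusted p = 0.0293, adjusted p = 1.0 by edgeR). Tfam, which packages that genome and starts its transcription, stood at 39.4, 41.4 and 29.7 CPM and 29.6, 22.7 and 16.2 CPM, where the lowest control and the highest treated library were within 1 CPM of each other (log2 fold change -0.69, unadjusted p = 0.073 by edgeR, and with the block unadjusted p = 0.0133).

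Of 17 TCA cycle genes, 0 were called without and 1 was called lower with the block, against 2.9% of all genes. This was Fh1, for fumarase, at 67.2, 42.0 and 58.4 CPM in control and 11.8, 42.7 and 28.1 CPM with AMD3100 (log2 fold change -1.02, unadjusted p = 0.0536 by edgeR, and with the block unadjusted p = 0.0197), with overlapping groups. The second lowest p of that list was that of Pdhx, for a structural part of pyruvate dehydrogenase, at 36.2, 31.1 and 39.8 CPM and 25.1, 21.1 and 28.5 CPM, which did not overlap but missed the threshold (log2 fold change -0.52, unadjusted p = 0.114 by edgeR). With the block Pdhx was also at -0.52 (unadjusted p = 0.0408 by edgeR), under the fold threshold. Idh3g of that list stood higher without overlap. Its log2 fold change with the block was 0.43 (unadjusted p = 0.0333 by edgeR), also under the fold threshold. Of 16 glycolytic genes and of 9 electron carriers and subunits outside the symbol rule 0 were called in either fit, with Eno2, the neuronal enolase, at 7.44, 4.52 and 4.29 CPM and 9.85, 12.8 and 7.61 CPM (log2 fold change 0.90, unadjusted p = 0.103 by edgeR), without overlap. Ldhb, a lactate dehydrogenase subunit, had 42.9, 60.9 and 46.5 CPM and 77.4, 64.2 and 48.3 CPM (log2 fold change 0.34, unadjusted p = 0.293 by edgeR), with 81.8% of its simulated reads shared. Among the electron carriers and other subunits the lowest p-values were those of Ndufab1, the mitochondrial acyl carrier protein, at 15.6, 13 and 22 CPM and 10.3, 8.85 and 19.2 CPM (log2 fold change -0.41, unadjusted p = 0.375 by edgeR), and of Etfdh, which feeds electrons from fatty acid oxidation into ubiquinone, at 2.89, 4.81 and 5.19 CPM and 2.59, 0.737 and 5.16 CPM (log2 fold change -0.61, unadjusted p = 0.505 by edgeR). The median log2 fold changes of the 5 lists were -0.07 for assembly factors, 0.07 for biogenesis regulators, -0.17 for the TCA cycle, 0.05 for glycolysis and -0.13 for electron carriers, against 0.02 over all genes tested, and 0 of their genes passed the adjusted threshold in either fit.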

How the data were processed

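Control and AMD3100-treated E14 eSMGs (3 tubes each) were grouped by their sample labels. The authors deposited raw counts of 50 bp single reads by gene symbol, and the submitters' processing notes name Bowtie2, edgeR and mm10; the paper's methods state quantile normalization with edgeR, which the deposited counts do not carry, and the annotation and the versions of Bowtie2 and edgeR are not given in the sources used here. Each table listed 23282 lines, of which 22 identical repeats were left out. The control libraries held 11532946, 13127539 and 10869528 counts and the AMD3100 libraries 14393031, 11358828 and 9051595 (replicates 1 to 3), of which Rn45s, the ribosomal RNA precursor, took 16.2% to 32.5%.

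All genes were fitted together with edgeR 4.0.16 in R 4.3.3 (TMM, filterByExpr, 13610 genes kept, glmQLFit, glmQLFTest, Benjamini-Hochberg adjustment), with condition as the only term; the biological coefficient of variation was 0.579. Standard errors and 95% intervals were derived from the fold change and the F statistic. A design of 3 against 3 cannot go below p = 0.1 in an exact permutation test, so none was used. The alternative fit added replicate number as a block. Deviations from the group means correlated between same-numbered libraries at 0.241, 0.220 and 0.646. Control replicate 2 correlated with AMD3100 replicate 1 at 0.259, and control replicate 1 with AMD3100 replicate 2 at 0.182. These values set replicate 3 apart in both groups but do not show that replicates 1 and 2 were paired. The pairing of tubes in the block therefore rests on the numbers in the labels alone.

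Other alternatives were DESeq2 1.42.0, limma-voom 3.58.1 after quantile normalization, other filters and scalings, replicate 3 as a batch, replicates 1 and 2 only, Rn45s left out, and each library left out. For 1 subunit gene, counted in all totals, no result is reported here. Shares of counts and their limits are Wilson values or 3 counts of the total.

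Subunits, lists and tests were chosen with earlier results of these data known. Described in full are subunit genes called, the 2 most abundant and the 2 of lowest p in each complex, isoform pairs and c-subunit genes, and the 2 genes of lowest p in each other list. Gene positions and promoters are from RefSeq on GRCm38.p6. Reads of 50 bases every 25 bases from the last 300 bases of each gene were aligned with minimap2 2.31-r1302 to NCBIM37 with GENCODE vM1, a different build from the authors', used only for shared reads and overlapping 3′ ends.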

Additional observations from a re-analysis of the deposited data

How the results depend on the processing

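Of 16 settings compared, the number of subunit genes called (3) became 5 with the replicate block and 5 with replicate 3 as a batch, and ranged from 0 to 4 when 1 library was left out, while 0 passed the adjusted threshold in every setting. The number was 2, Ndufa1 and Cox7c, with 10 counts required in every library (219 of 10956 genes in all) and with limma-voom (312 of 13610). Where it stayed at 3 the genes could differ. No filter, or leaving out control replicate 2, gave Cox7c, Ndufa1 and Sdhc, and replicates 1 and 2 only gave Ndufa1, Ndufb3 and Sdhc. The genes called in the whole table (228) became 598 with the replicate block, 564 with replicate 3 as a batch and 613 with replicates 1 and 2 only, and ranged from 163 to 547 with 1 library left out. The median log2 fold change of the subunit genes (0.03) ranged from -0.15 to 0.14 with 1 library left out. The replicate block changed no other call among the genes named than those given in the report.

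None of the genes that changed sign in any setting had been called. With replicates 1 and 2 only the log2 fold change was 0.0349 for Sdha, -0.00501 for Uqcrh, 0.0165 for Uqcrq, 0.22 for Cox6b1, 0.31 for Cox7b and 0.0144 for Atp5g2. With the replicate block it was 1.48 for Cox6a2, 0.0350 for Cox6b1 and 0.0198 for Cox7b, with replicate 3 as a batch 2.51, 0.0339 and 0.0193, and with limma-voom 0.71 for Cox6a2 and 0.0159 for Cox7b. With 1 library left out the ranges were -0.21 to 0.78 for Ndufa2, -0.36 to 0.53 for Ndufb8, -0.55 to 0.33 for Ndufa4l2, -0.16 to 0.10 for Sdha, -0.48 to 0.63 for Uqcrh, -0.16 to 0.10 for Uqcrq, -0.0713 to 0.51 for Uqcr10, -0.63 to 0.91 for Cox6c, -4.90 to 0.13 for Cox4i2, -1.79 to 7.16 for Cox6a2, -0.0189 to 0.42 for Cox6a1, -0.31 to 0.48 for Cox6b1, -0.50 to 0.64 for Cox7b, -0.56 to 0.14 for Atp5g3, -0.15 to 0.71 for Atp5o, -4.25 to 0.00698 for Atp5s, -0.19 to 0.44 for Atp5g1 and -0.0880 to 0.0602 for Atp5g2. The cause was not tested.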
